A study of Drosophila melanogaster with 5 samples.

Results

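The nuclear genes for proteins of the mitochondrial ribosome were described in RNA from testis ribosomes of Drosophila melanogaster, gene by gene and by ribosomal subunit. Members were all genes of the deposited table whose symbol starts with mRpL, for the large subunit, or mRpS, for the small subunit. They were 72 of 12847 genes, 46 mRpL and 26 mRpS. The rule used the symbol and no measured value, but it was chosen with earlier results of these data known. Ribosomes precipitated with antibodies to βNACtes (βNACtes IP, 3 libraries) were set against total ribosomes (2 libraries). βNACtes is the germline form of the β-subunit of NAC (nascent polypeptide associated complex), which sits on translating ribosomes beside the growing chain. Both groups came from extracts of 1000 pooled frozen testes of adult males of the Batumi strain, whose age the labels give as 1-2 with no unit. The testes were homogenized with cycloheximide, which arrests translating ribosomes on their mRNA, debris was spun out, and ribosomes were pelleted from the post-mitochondrial supernatant. Part of the dissolved pellet went through the precipitation, and another part served as total ribosomes.

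Mitochondria carry a ribosome of their own, which translates the few mRNAs of the mitochondrial genome into core subunits of the respiratory chain and the ATP synthase. Its rRNAs are encoded in mitochondria, whereas its proteins are encoded in the nucleus, made on cytoplasmic ribosomes and imported, so that mRNAs for both subunits are read by the ribosomes that were pelleted here. The large subunit joins the amino acids and passes the chain out through its exit tunnel, and the small subunit holds the mRNA and decodes it. In the fly testis, mitochondria of early spermatids fuse into the nebenkern, which later elongates along the sperm tail.

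Levels are the authors' mean FPKM of a group (fragments per kilobase of transcript, scaled to the size of the library). Because there is 1 mean per group, no difference below can be set against a spread between libraries, none was tested, and the depth behind a value is unknown. Differences are given on the scale of log2(FPKM + 0.1), as the level in the βNACtes IP minus the level in total ribosomes, less the median of this difference over the 9793 genes with a mean of the 2 groups of at least 1 FPKM. This median was 0.73, so that a relative log2 ratio of 0 is that of the median gene. The scale understates the difference of low genes. A gene was called lower at a relative log2 ratio of −1 or less and higher at 1 or more. All 72 members reached the minimum of 1 FPKM.

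The germline markers of the testis were present in both groups, none of 16 at 0. Their summed levels were 15118 FPKM in the βNACtes IP and 5934 FPKM in total ribosomes. A few genes carried these sums, with Mst84Da at 8935 FPKM in the βNACtes IP and 1704 FPKM in total ribosomes. Of the 16, 6 were called higher and 2 lower, where 26.4% of all genes kept were called higher and 29.2% lower. Of 7 accessory gland markers 6 were in the table, and all 6 were called lower. Their sum was 9135 FPKM in the βNACtes IP against 38150 FPKM in total ribosomes. Acp53Ea alone had 4004 FPKM in the βNACtes IP and 25560 FPKM in total ribosomes. The muscle and somatic testis markers were at low levels, 164 FPKM in sum in the βNACtes IP and 140 FPKM in total ribosomes for 10 of 11 genes in the table. Of the 8 of them that were kept, 3 were called higher and 1 lower, with a median relative log2 ratio of 0.72 against −0.10 for the germline markers and −2.16 for the accessory gland markers. The gene tj, a marker of somatic cyst cells, was at 0 in total ribosomes. Transcripts known from somatic cells and from the accessory gland were thus in the libraries beside those of the germline, and their part in the results below was not tested. In bulk RNA, the cell types that a transcript came from cannot be told apart in either group.

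Transcripts of the mitochondrial ribosomal proteins had moderate levels, and they stood lower in the βNACtes IP than in total ribosomes relative to the median gene, although in TPM, without centring, the median of the small subunit was above 0. The median member had 24.9 FPKM in the βNACtes IP and 51.4 FPKM in total ribosomes, whereas the median of all genes kept was 14.1 FPKM in the βNACtes IP and 9.60 FPKM in total ribosomes. On the scale of ranks among genes kept, the median member was at the 61.5th percentile in the βNACtes IP and at the 80.0th in total ribosomes. Relative to the median gene, 59 of 72 members were called lower (81.9%), none higher and 13 neither, or 56 of 69 lower without 3 members listed at 0 in the βNACtes IP. Of all 9793 genes kept, 29.2% were called lower and 26.4% higher. The median relative log2 ratio of the members was −1.80, with quartiles of −2.39 and −1.25, and 69 of 72 members were below 0.

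How far the members were below 0 depended on the scaling of the 2 groups. On the deposited values with no centring the median member had a log2 ratio of −1.07, with 39 members lower and 2 higher. Of all genes kept, 18.3% were then lower and 43.6% higher. With each group scaled to TPM, which is FPKM divided by its sum over all genes, the median member had −0.24. In TPM 12 members were lower and 6 higher, against 8.75% and 62.05% of all genes kept. The small subunit turned to 0.18. The median of all genes kept moved to 0.73 and 1.55 under these scalings, and to 0.25 when upper quartiles were used. Of the genes called in either direction, 47.5% were higher with median centring, against 70.5% on the deposited values, 87.6% in TPM and 55.8% with upper quartiles. These scalings move all genes alike, so that 69 of 72 members are below the median of all genes in each by construction. Before centring 10 members (13.9%) had a higher FPKM in the βNACtes IP than in total ribosomes, against 65.6% of all genes kept.

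**Figure D1:**
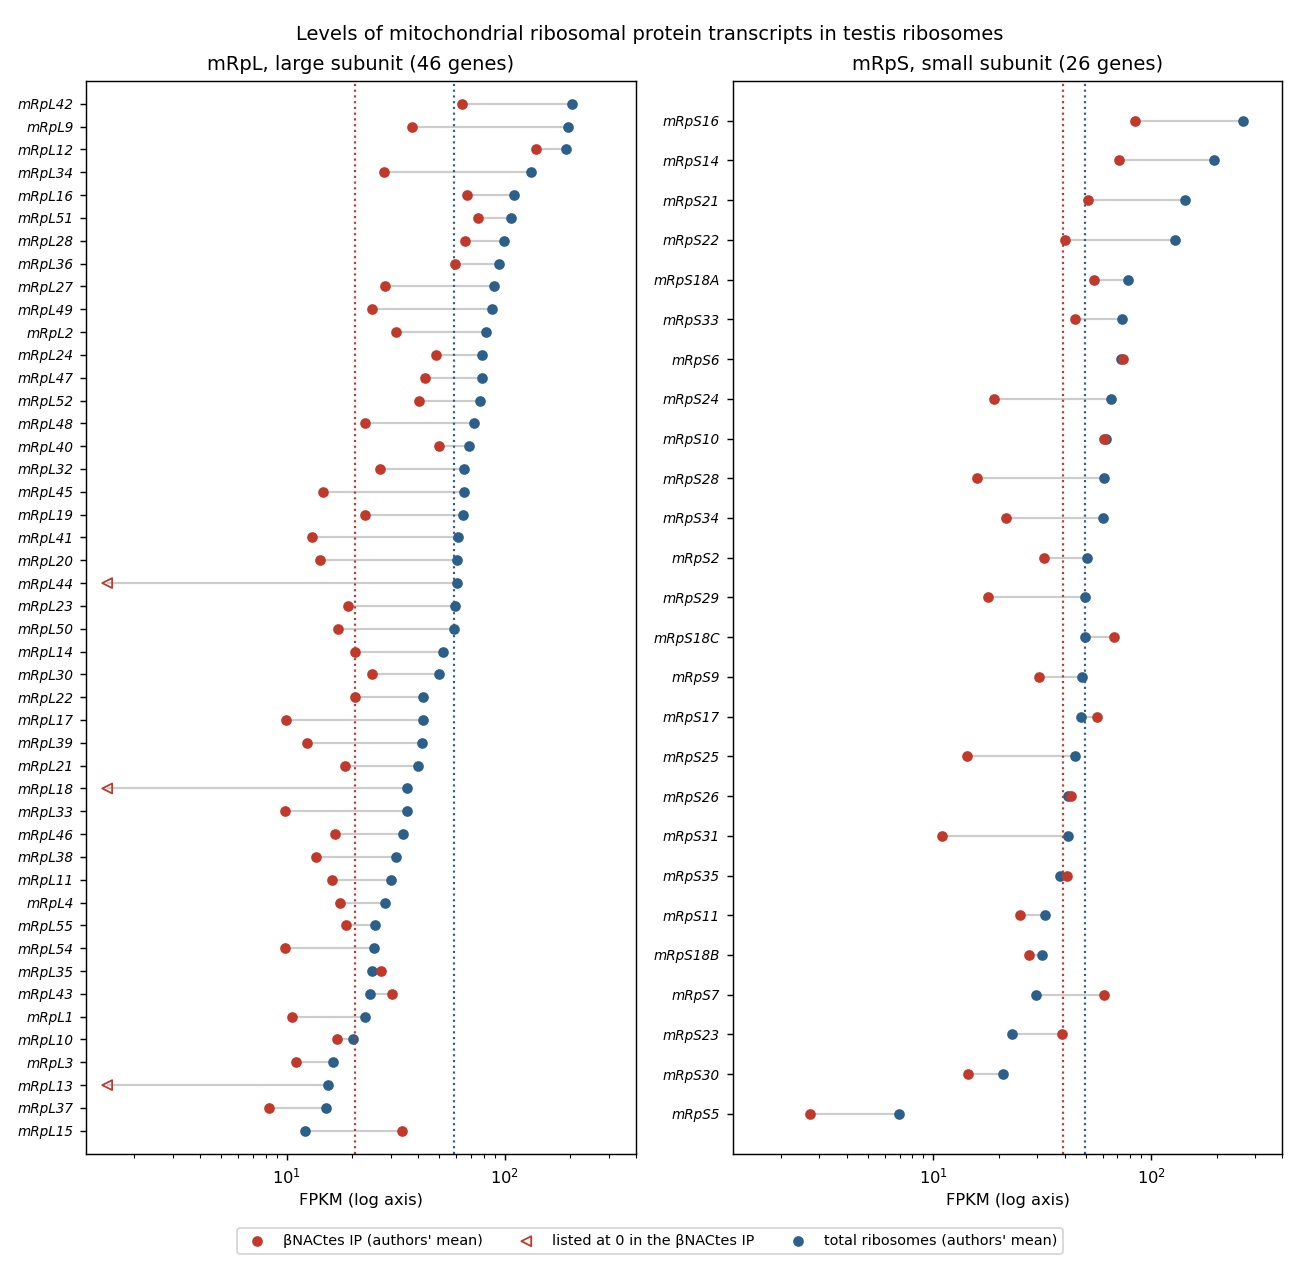
Level of each mitochondrial ribosomal protein transcript, in FPKM on a log axis, in the βNACtes IP (red) and total ribosomes (blue), for the 46 mRpL genes (left) and the 26 mRpS genes (right), each sorted by the level in total ribosomes; dotted lines are the medians of a group. The medians lie at 20.5 and 58.6 FPKM for the large subunit and closer together, at 39.6 and 49.5 FPKM, for the small subunit, and open triangles mark the 3 mRpL genes listed at 0 in the βNACtes IP.

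The order of the subunits differed between the groups over all members. Over those whose exons overlap another gene, given below, it differed only without the mRpL genes at 0 in the βNACtes IP. The ratio in total ribosomes was then 1.005. In the βNACtes IP the large subunit had the lower median, 20.5 FPKM (quartiles 13.8 and 33.3) against 39.6 FPKM (19.7 and 56.0) for the small subunit, a ratio of 0.518. In total ribosomes the large subunit had the higher median, 58.6 FPKM (30.6 and 78.5) against 49.5 FPKM (38.9 and 71.0), a ratio of 1.18. The ranges of both subunits overlapped widely in both groups. At least 30 FPKM in the βNACtes IP were reached by 14 of 46 mRpL genes and by 16 of 26 mRpS genes. Among the 20 highest members, 9 were mRpL and 11 mRpS in the βNACtes IP, while 14 were mRpL and 6 mRpS in total ribosomes. Summed over genes, which also reflects that the large subunit has more members, mRpL genes reached 1617 TPM and mRpS genes 1273 TPM in the βNACtes IP, a ratio of 1.27. In total ribosomes the sums were 2037 TPM for mRpL genes and 1226 TPM for mRpS genes, a ratio of 1.66.

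By subunit, the large one had the lower median ratio over all members, and the small one over the members whose exons overlap another gene. Of the mRpL genes, 42 of 46 were called lower (91.3%), or 39 of 43 without the 3 listed at 0 in the βNACtes IP, with a median relative log2 ratio of −1.89 (quartiles −2.48 and −1.42). Of the mRpS genes, 17 of 26 were called lower (65.4%), with a median of −1.39 (−2.20 and −0.72). The medians differed by −0.51 (large minus small), or by −0.44 without those 3. Genes are not replicates, so this difference carries no error, and it is smaller than the distance between the quartiles of either subunit. It turned to 0.19 over the 42 members whose exons overlap another gene and to 0.21 over the 18 longest members.

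**Figure D2:**
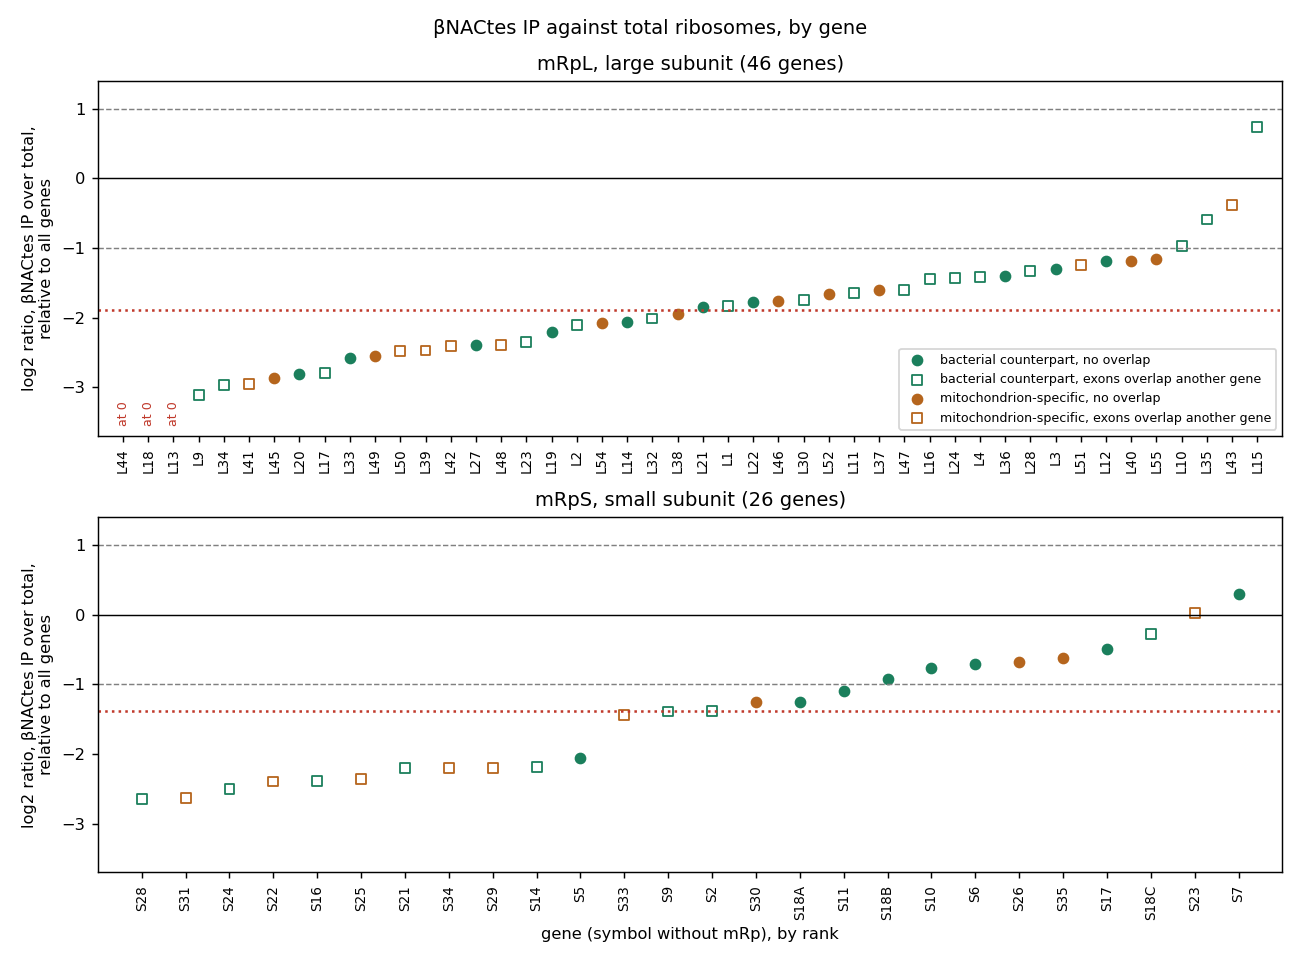
Relative log2 ratio (βNACtes IP over total ribosomes, 0 is the median of all genes kept) of each mRpL gene (top) and mRpS gene (bottom), in order of the ratio; colours separate proteins with a bacterial counterpart from mitochondrion-specific ones, filled circles have no exons shared in position with another gene, open squares do. Dashed lines mark the limits of −1 and 1, the dotted line the median of the subunit (−1.89 and −1.39), and "at 0" marks mRpL44, mRpL18 and mRpL13.

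Among the mRpL genes mRpL12 led in the βNACtes IP with 139 FPKM, followed by mRpL51 (75.4 FPKM), mRpL16 (67.1 FPKM), mRpL28 (65.5 FPKM) and mRpL42 (63.4 FPKM). The lowest above 0 in the βNACtes IP were mRpL37 (8.28 FPKM) and mRpL33 (9.79 FPKM). In total ribosomes the highest were mRpL42 (203 FPKM), mRpL9 (196 FPKM), mRpL12 (191 FPKM), mRpL34 (132 FPKM) and mRpL16 (110 FPKM). So mRpL12, mRpL16 and mRpL42 were among the 5 highest mRpL genes of both groups. At the low end in total ribosomes were mRpL15 (12.2 FPKM), mRpL37 (15.2 FPKM), mRpL13 (15.4 FPKM), mRpL3 (16.3 FPKM) and mRpL10 (20.1 FPKM), a factor of 16.7 below the highest for mRpL15.

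The stalks of the large subunit are mobile arms that guide tRNAs and recruit translation factors. mRpL12, which in bacteria is present in several copies on the ribosome and contacts the elongation factors, had 139 FPKM in the βNACtes IP and 191 FPKM in total ribosomes, a relative log2 ratio of −1.19. mRpL10, which anchors L12 to the ribosome, had 17.03 FPKM in the βNACtes IP and 20.1 FPKM in total ribosomes, just above the limit for lower at −0.97. mRpL11, at the base of the same stalk, had 16.1 FPKM in the βNACtes IP and 30.2 FPKM in total ribosomes (−1.64). mRpL1, of the other stalk, which in bacteria helps to move deacylated tRNA out, had 10.6 FPKM in the βNACtes IP and 22.8 FPKM in total ribosomes (−1.83). Thus 3 of these 4 were called lower, and mRpL12 stood apart from its neighbours by its level in both groups.

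Around the peptidyl transferase centre, where the peptide bond is made, all 5 of the genes followed were called lower. mRpL2 had 31.7 FPKM in the βNACtes IP and 82.0 FPKM in total ribosomes (−2.10), and mRpL27, whose bacterial counterpart reaches towards the active site, had 28.1 FPKM in the βNACtes IP and 89.4 FPKM in total ribosomes (−2.39). mRpL16 was at a higher level, with 67.1 FPKM in the βNACtes IP and 110 FPKM in total ribosomes (−1.44). mRpL3 and mRpL4 were low in both groups: mRpL3 had 11 FPKM in the βNACtes IP and 16.3 FPKM in total ribosomes (−1.29), and mRpL4 had 17.5 FPKM in the βNACtes IP and 28.1 FPKM in total ribosomes (−1.41). Proteins that sit in the same complex at 1 copy each therefore had transcripts that differed 6.10-fold in the βNACtes IP and 6.76-fold in total ribosomes.

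The exit tunnel of the mitochondrial ribosome opens towards the inner membrane. The 4 genes followed here were all called lower. mRpL4, given above, also lines the tunnel, and mRpL47, at its opening, had 43.0 FPKM in the βNACtes IP and 78.4 FPKM in total ribosomes (−1.60). mRpL22 had 20.5 FPKM in the βNACtes IP and 42.3 FPKM in total ribosomes (−1.77). mRpL23 had 19.0 FPKM in the βNACtes IP and 58.9 FPKM in total ribosomes (−2.35), and mRpL24 had 48.2 FPKM in the βNACtes IP and 78.5 FPKM in total ribosomes (−1.43). mRpL45, whose mammalian counterpart holds the ribosome at the membrane, had the lowest ratio of the 4, with 14.6 FPKM in the βNACtes IP and 64.7 FPKM in total ribosomes (−2.87). In the central protuberance, which faces the small subunit, mRpL38 had 13.7 FPKM in the βNACtes IP and 31.8 FPKM in total ribosomes (−1.94), and mRpL18 was listed at 0 in the βNACtes IP.

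The lowest ratio of a member above 0 was that of mRpL9, with 37.5 FPKM in the βNACtes IP against 196 FPKM in total ribosomes, 0.191 times (−3.11). The bacterial L9 reaches out from the base of the L1 stalk. Next to it came mRpL34, a very short protein in bacteria, with 27.9 FPKM in the βNACtes IP and 132 FPKM in total ribosomes (−2.96). mRpL41 (−2.95), mRpL45 (−2.87) and mRpL20 (−2.82) followed. These last 3 had 13.1 to 14.6 FPKM in the βNACtes IP and 60.7 to 64.7 FPKM in total ribosomes, so that a low ratio went with different levels.

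At the other end, 4 mRpL genes were not called lower. mRpL15, whose bacterial counterpart is among the proteins that bind the large rRNA during assembly, was the only mRpL gene above 0, with 33.8 FPKM in the βNACtes IP and 12.2 FPKM in total ribosomes, 2.78 times (0.74). mRpL15 had the lowest level of all mRpL genes in total ribosomes, so that its ratio also rests on that low value. mRpL43 had 30.5 FPKM in the βNACtes IP and 24.03 FPKM in total ribosomes (−0.39), and mRpL35 had 27.2 FPKM in the βNACtes IP and 24.6 FPKM in total ribosomes (−0.59). mRpL10, described above, is the fourth, and mRpL55 was the highest of those called lower, with 18.8 FPKM in the βNACtes IP and 25.3 FPKM in total ribosomes (−1.16). The 4 genes called neither had 17.03 to 33.8 FPKM in the βNACtes IP and 12.2 to 24.6 FPKM in total ribosomes, and the exons of all 4 overlap those of a neighbouring gene.

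Of the small subunit, mRpS16 was the most abundant transcript in the βNACtes IP, with 83.9 FPKM, followed by mRpS6 (74.4 FPKM), mRpS14 (70.9 FPKM), mRpS18C (67.7 FPKM) and mRpS10 (61.0 FPKM). The lowest in the βNACtes IP were mRpS5 (2.71 FPKM), mRpS31 (10.9 FPKM), mRpS25 (14.3 FPKM), mRpS30 (14.5 FPKM) and mRpS28 (15.9 FPKM). In total ribosomes mRpS16 led as well, with 264 FPKM, the highest level of any member, followed by mRpS14 (195 FPKM), mRpS21 (143 FPKM), mRpS22 (128 FPKM) and mRpS18A (78.4 FPKM). Thus mRpS16 and mRpS14 were among the 5 highest mRpS genes of both groups, and mRpS5 was last in both. The other low genes in total ribosomes were mRpS30 (20.9 FPKM), mRpS23 (22.9 FPKM), mRpS7 (29.8 FPKM) and mRpS18B (31.4 FPKM). mRpS16 was 38.1 times mRpS5 (6.94 FPKM) in total ribosomes, a wider range than that of the mRpL genes, and it rests on the low level of mRpS5.

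The ratios of the mRpS genes ran from −2.65 to 0.30. At the low end, mRpS28, whose human counterpart is related to bacterial S1, had 15.9 FPKM in the βNACtes IP and 60.6 FPKM in total ribosomes (−2.65). mRpS31 had 10.9 FPKM in the βNACtes IP and 41.3 FPKM in total ribosomes (−2.64), and mRpS24, whose human counterpart is related to bacterial S3 of the head, had 19.1 FPKM in the βNACtes IP and 65.6 FPKM in total ribosomes (−2.51). mRpS22 had 40.3 FPKM in the βNACtes IP and 128 FPKM in total ribosomes (−2.40), and mRpS16, of the body of the subunit, had 83.9 FPKM in the βNACtes IP and 264 FPKM in total ribosomes (−2.39). The 4 most abundant mRpS transcripts in total ribosomes, mRpS16, mRpS14, mRpS21 and mRpS22, all had ratios of −2.19 or less. They were picked by the level that is also the denominator of the ratio, which favours low ratios.

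Near or above the median gene stood mRpS7, which in bacteria starts the assembly of the head, with 60.7 FPKM in the βNACtes IP and 29.8 FPKM in total ribosomes, 2.04 times (0.30). mRpS23 had 38.8 FPKM in the βNACtes IP and 22.9 FPKM in total ribosomes, 1.69 times (0.03). These were the only mRpS genes above 0. mRpS18C (−0.28), mRpS17 (−0.49) and mRpS35 (−0.62) followed, and mRpS26 (−0.69), mRpS6 (−0.70), mRpS10 (−0.76) and mRpS18B (−0.92) were the others not called lower. The levels of mRpS6, an RNA-binding protein of the platform that pairs with S18, were almost equal, 74.4 FPKM in the βNACtes IP and 72.8 FPKM in total ribosomes. Before centring, 3 of 46 mRpL genes and 7 of 26 mRpS genes had a higher FPKM in the βNACtes IP than in total ribosomes. Of all genes kept, 65.6% did.

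Genes of the head of the small subunit, the part above the decoding site, stood on both sides of the limit. mRpS7 (0.30) and mRpS10 (61.0 FPKM in the βNACtes IP, 62.3 FPKM in total ribosomes, −0.76) were not called lower. mRpS9, whose bacterial counterpart contacts the tRNA in the P site, had 30.4 FPKM in the βNACtes IP and 48.1 FPKM in total ribosomes (−1.39), and mRpS29, the fly counterpart of the GTP-binding protein DAP3, had 17.9 FPKM in the βNACtes IP and 49.6 FPKM in total ribosomes (−2.20). At the mRNA entry, mRpS2 had 32.2 FPKM in the βNACtes IP and 50.7 FPKM in total ribosomes (−1.38). mRpS5, next to it in the ribosome, had 2.71 FPKM in the βNACtes IP and 6.94 FPKM in total ribosomes (−2.06). Both were called lower, at levels that differed 11.9-fold in the βNACtes IP and 7.31-fold in total ribosomes.

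The S18 set consists of 3 relatives of a bacterial protein, mRpS18A, mRpS18B and mRpS18C. In mammals they take different places, and the counterpart of mRpS18A sits in the large subunit, as does that of mRpS30. mRpS18A had 54.6 FPKM in the βNACtes IP and 78.4 FPKM in total ribosomes (−1.25). mRpS18B had 27.5 FPKM in the βNACtes IP and 31.4 FPKM in total ribosomes (−0.92), and mRpS18C had 67.7 FPKM in the βNACtes IP and 49.4 FPKM in total ribosomes (−0.28). Within the set mRpS18C was highest in the βNACtes IP and mRpS18A in total ribosomes, and mRpS18A alone was called lower. mRpS30 had 14.5 FPKM in the βNACtes IP and 20.9 FPKM in total ribosomes (−1.25). With mRpS18A and mRpS30 counted with the large subunit, the medians differed by −0.42 (large minus small).

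The genes tko and bonsai encode the mitochondrial S12, of the decoding centre, and S15, but lack the mRpS prefix. tko, a classical bang-sensitive gene of the fly, had 15.99 FPKM in the βNACtes IP and 52.9 FPKM in total ribosomes (−2.45). bonsai had 24.6 FPKM in the βNACtes IP and 74.98 FPKM in total ribosomes (−2.34). Both were called lower, near the low end of the mRpS genes. With both added, 61 of 74 genes were called lower, and the medians differed by −0.48 (large minus small).

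Members with a counterpart in bacterial ribosomes had a somewhat higher median ratio than members found in mitochondria alone, with widely overlapping ranges. Among the 45 with a bacterial counterpart, 36 were called lower, with a median relative log2 ratio of −1.75 (quartiles −2.35 and −1.25). Of the 27 mitochondrion-specific members 23 were called lower, with a median of −2.08 (quartiles −2.44 and −1.25). The medians differed by 0.33 (bacterial counterpart minus mitochondrion-specific), by 0.25 within the large subunit and by 0.50 within the small subunit. Within the members with a bacterial counterpart the large and small subunits differed by −0.51, and within the mitochondrion-specific members by −0.26. Both splits kept their direction within the classes of the other. Genes are not replicates, so these differences carry no error, and that of 0.33 is smaller than the distance between the quartiles of either class.

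mRpL13, mRpL18 and mRpL44 were listed at 0 in the βNACtes IP. In total ribosomes mRpL13 had 15.4 FPKM, mRpL18 had 35.7 FPKM and mRpL44, a protein with an RNase III fold, had 60.5 FPKM. No fold is given for them, since an exact 0 can be a failed estimate. Of the 3980 genes kept with at least 15.39 FPKM in total ribosomes, 33 were at 0 in the βNACtes IP (0.829%). This minimum is the level of mRpL13 itself, so the 3 members are among those 33. In the BDGP6 annotation the exons of all 3 members overlap another gene. mRpL13 (2L, 18858028 to 18859248, minus strand) shares 236 bp, or 35.2% of its exons, with CG10602 on the same strand, which had 83.2 FPKM in the βNACtes IP and 74.5 FPKM in total ribosomes. mRpL44 (3R, 5469463 to 5470636, minus strand) shares 104 bp with POLDIP2 on the other strand, at 569 FPKM in the βNACtes IP and 173 FPKM in total ribosomes. mRpL18 (2R, plus strand) shares 41 bp with ox, a subunit of respiratory complex III, at 230 FPKM in the βNACtes IP and 201 FPKM in total ribosomes. Over all annotated genes kept, exons overlapped those of another gene for 83.6% of the 122 at 0 in the βNACtes IP and for 34.0% of the 9580 above 0. The part of these overlaps in the values of 0 was not tested.

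Such overlaps were more frequent among the members than among other genes. The exons of 42 of 72 members (58.3%) overlap those of another gene, against 34.6% of all 9702 annotated genes kept. In 40 of the 42 the partner is on the opposite strand alone, the median overlap is 53 bp, and in 7 it covers more than 20% of the member. The share was alike in both subunits, 58.7% of mRpL genes and 57.7% of mRpS genes. Whether the counting used strand is not given in the sources used here, so reads of a member and of its partner cannot be told apart in the shared stretch. As examples, 332 bp of mRpS24 (55.3%) overlap TBC1d7, 325 bp of mRpS9 overlap ArgRS-m, 57 bp of mRpS23 overlap Polr2C, and 47 bp of mRpL15 overlap Psn.

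Members with an overlap had lower ratios over both subunits together and in the small subunit. In the large subunit this held only with the members at 0 in the βNACtes IP. The median relative log2 ratio was −2.19 for the 42 members with an overlap, of which 36 were called lower, and −1.50 for the 30 without, of which 23 were called lower. In the large subunit the median was −2.01 with an overlap and −1.84 without, where 19 of 19 were called lower. Over the mRpL genes with an overlap and above 0 in the βNACtes IP, it was −1.79. In the small subunit it was −2.20 with an overlap, where 13 of 15 were called lower, and −0.76 without, where 4 of 11 were. Of the 9 mRpS genes not called lower, 7 have no overlap. Among all annotated genes kept, the medians were 0.01 with an overlap and −0.01 without. The part of the overlaps in the members' ratios was not tested.

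Over the members whose exons overlap no other gene, the subunits stood further apart. The 19 mRpL genes had a median of 18.8 FPKM in the βNACtes IP and 52.0 FPKM in total ribosomes, and the 11 mRpS genes had 43.0 FPKM in the βNACtes IP and 38.045 FPKM in total ribosomes. The large subunit was thus at 0.436 times the small subunit in the βNACtes IP and at 1.37 times in total ribosomes. The difference of the median relative log2 ratios was −1.08 (large minus small). Over the 42 members with an overlap the order was another. Their medians were 24.7 FPKM for 27 mRpL genes and 32.2 FPKM for 15 mRpS genes in the βNACtes IP (0.766 times), and 58.9 FPKM for the mRpL genes and 59.8 FPKM for the mRpS genes in total ribosomes (0.985 times). Their median relative log2 ratios differed by 0.19 (large minus small), or by 0.41 without the 3 mRpL genes at 0. Without those 3, the large subunit was at 0.836 times the small subunit in the βNACtes IP and at 1.005 times in total ribosomes. The lower median ratio of the large subunit was thus found over the 30 members without an overlap and not over the other 42.

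**Figure D3:**
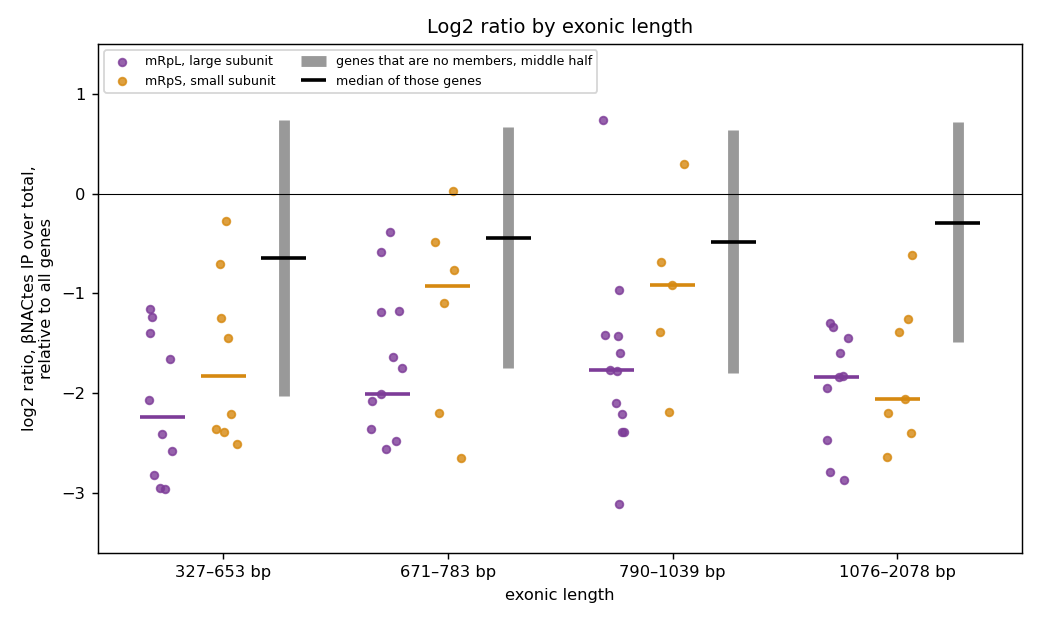
Relative log2 ratio (βNACtes IP over total ribosomes) by exonic length, for mRpL genes (purple) and mRpS genes (orange) above 0 in the βNACtes IP, and for the other genes kept of the same length (grey bar, lower to upper quartile; black line, median). Coloured lines are medians of all members of a subunit in the bin; the median of the members is −2.14, −1.75, −1.60 and −1.89 from the shortest to the longest bin, and that of the other genes −0.65, −0.44, −0.48 and −0.30.

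The members are short genes, and short genes in general had lower ratios. The median exonic length was 783 bp for the members, 786.5 bp for mRpL genes and 756 bp for mRpS genes, against 1663 bp for all genes kept. Across the 72 members, Spearman's rho of relative log2 ratio and exonic length was 0.05, and across all 9702 annotated genes kept it was 0.33, a description over genes of the same libraries. In each of the 4 length bins, cut at the quartiles of the members, the members lay below the other genes of that length. From 327 to 653 bp, the median was −2.14 for 18 members and −0.65 for 962 other genes, of which 43.1% were called lower, as were 16 of the members. From 1076 to 2078 bp, it was −1.89 for 18 members and −0.30 for 3332 other genes, of which 34.2% were called lower, as were 17 of the members. The large subunit had the lower median in the 3 shorter bins, and the small subunit in the longest (−1.84 for 11 mRpL genes, −2.06 for 7 mRpS genes, a difference of 0.21). The part of length in the members' ratios was not tested beyond these bins.

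Levels in the βNACtes IP followed those in total ribosomes less closely in the members than over all genes. Spearman's rho was 0.61 across the 72 members, 0.69 across mRpL genes and 0.52 across mRpS genes, against 0.78 across all genes kept. The members cover a narrower range of levels than all genes, and each gene has 1 value per group. The relative log2 ratio was lower where the level in total ribosomes was higher, with a rho of −0.30 across members, −0.21 across mRpL genes and −0.45 across mRpS genes. The level in total ribosomes is also the denominator of the ratio, and the same rho was −0.47 across all genes kept.

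The members are spread over the chromosomes, with 12 genes on 2L, 11 on 2R, 17 on 3L, 21 on 3R and 11 on X in the BDGP6 annotation. All 11 X-linked members, 8 mRpL and 3 mRpS, were called lower, with ratios from −2.58 to −1.25 and a median of −1.94. Of the 61 autosomal members 48 were called lower (78.7%), with a median of −1.76. Of all members 81.9% were called lower, and of all genes kept 29.2%. The shares over all X-linked and all autosomal genes are not given here. All 10 members with a higher FPKM in the βNACtes IP than in total ribosomes are autosomal, among them mRpL15 (3L, 20435110 to 20436209, minus strand), mRpS7 (2L, 10386662 to 10387652, plus strand) and mRpS23 (2L, 13834250 to 13835072, minus strand). The groups of X-linked and autosomal members overlap in their ratios.

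**Figure D4:**
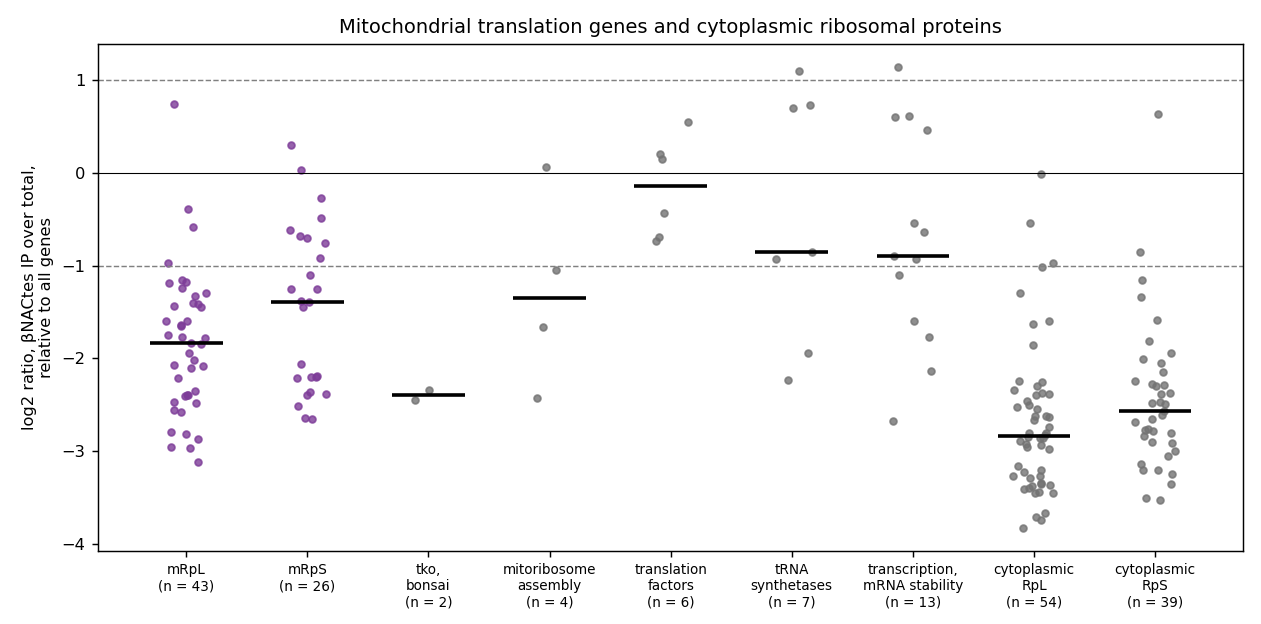
Relative log2 ratio (βNACtes IP over total ribosomes) of mRpL and mRpS genes (purple) and, in grey, of other genes of mitochondrial translation and of cytoplasmic ribosomal proteins, each point a gene above 0 in both groups and each black line the median of the points; dashed lines mark −1 and 1. The translation factors lie around 0 (median −0.14), between −0.73 and 0.55, while cytoplasmic ribosomal proteins lie lowest (medians −2.83 and −2.57).

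Other genes of mitochondrial translation did not all share the low ratios of the ribosomal proteins. Of 10 translation factors followed, 7 were in the table and 6 kept, and none was called in either direction, with a median relative log2 ratio of −0.14. The factors mEFTu1, mEFG1 and mEFG2 were not found in the table, so nothing is said of them. mEFTu2, an elongation factor that brings tRNAs to the ribosome, had 143 FPKM in the βNACtes IP and 58.8 FPKM in total ribosomes (0.55). mEFTs, its exchange factor, had 336 FPKM in the βNACtes IP and 176 FPKM in total ribosomes (0.20). The initiation factors mIF2 (3.91 FPKM in both groups, −0.73) and mIF3 (12.3 FPKM in the βNACtes IP, 6.62 FPKM in total ribosomes, 0.15), the recycling factor mRRF1 (20.3 FPKM in the βNACtes IP, 16.5 FPKM in total ribosomes, −0.43) and the release factor mRF1 (4.19 FPKM in the βNACtes IP, 4.09 FPKM in total ribosomes, −0.70) were also between the limits. The GTPase gene waw was below the minimum, at 0 in the βNACtes IP and 0.57 FPKM in total ribosomes. Before centring 5 of the 6 factors had a higher FPKM in the βNACtes IP than in total ribosomes, and mIF2 was equal in both. A higher FPKM in the βNACtes IP was also found for 65.6% of all genes kept.

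Among 4 genes for assembly of the mitochondrial ribosome, 3 were called lower, with a median of −1.35. These were CG7488, the counterpart of the human rRNA chaperone ERAL1 (−1.04), and the rRNA methyltransferases Mrm2 (−1.66) and Nsun4 (−2.43), at 1.63 to 24.4 FPKM in the βNACtes IP. The GTPase gene noa had 3.40 FPKM in the βNACtes IP and 1.92 FPKM in total ribosomes (0.07). Of 14 genes for mitochondrial transcription and mRNA stability 13 were kept, of which 5 were called lower and 1 higher, with a median of −0.90. SLIRP2, of the family that stabilizes mitochondrial mRNAs with LRPPRC proteins, had 35.3 FPKM in the βNACtes IP and 136 FPKM in total ribosomes (−2.67), whereas mtRNApol, the mitochondrial RNA polymerase, had 9.50 FPKM in the βNACtes IP and 2.53 FPKM in total ribosomes (1.14). TFAM, which packages mitochondrial DNA, had 27.9 FPKM in the βNACtes IP and 50.9 FPKM in total ribosomes (−1.59). Of 15 mitochondrial aminoacyl-tRNA synthetases 9 were in the table, with 3 called lower and 2 higher and a median of −0.86, shares near the 29.2% and 26.4% of all genes kept. TrpRS-m had 248 FPKM in the βNACtes IP and 70.0 FPKM in total ribosomes (1.09), and CysRS-m had 155 FPKM in the βNACtes IP and 56.5 FPKM in total ribosomes (0.73). At low levels, TyrRS-m had 3.92 FPKM in the βNACtes IP and 9.205 FPKM in total ribosomes (−1.94). IleRS-m had 0.67 FPKM in the βNACtes IP and 2.085 FPKM in total ribosomes (−2.235), and both were called lower. The counts of synthetases include AsnRS-m among the lower ones, listed at 0 in the βNACtes IP, and ArgRS-m among the higher ones, listed at 0 in total ribosomes.

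Cytoplasmic ribosomal proteins were far more abundant and lower still. They were taken by symbol, so that genes named as -like are among them. Of these, RpL7-like (−0.54), RpL22-like (−0.97) and RpS28-like (0.63) were not called lower, whereas RpL24-like (−1.01) and RpLP0-like (−1.30) were. RpL10Aa (−0.009) and RpS19b (−0.85), not named as -like, were also not called lower. The 54 large subunit genes had a median of 477 FPKM in the βNACtes IP and 2165 FPKM in total ribosomes, and 51 were called lower (median −2.83). The 39 small subunit genes had 450 FPKM in the βNACtes IP and 1667 FPKM in total ribosomes, and 37 were called lower (median −2.57). Their subunits differed by −0.27 (large minus small), and the median level of the large subunit was 1.06 times that of the small subunit in the βNACtes IP, against 1.30 times in total ribosomes. The corresponding ratio of the mitochondrial subunits was 0.518 in the βNACtes IP, against 1.18 in total ribosomes.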

How the data were processed

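RNA associated with testis ribosomes was sequenced in 5 libraries, and 1 table of the whole series was analysed. The authors deposited for each gene 1 mean value of the 3 βNACtes IP libraries, 1 of the 2 total ribosome libraries, and the log2 of their ratio. The table names no unit. The values were read as FPKM averaged by the authors, because the submitters' processing notes name Cufflinks 2.2.1, and because value times exonic length in kilobases sums to 1098139 for the βNACtes IP and 1098843 for total ribosomes. The notes also name TopHat2 2.0.14, Bowtie2 and the dm3 build. The annotation, the use of strand and the handling of reads with several matching genes are not given in the sources used here. The log2 ratio column deposited by the authors holds their own comparison and was not used.

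Genes with a mean of the 2 groups of at least 1 FPKM were kept, and log2(FPKM + 0.1) ratios were centred on their median. Exonic lengths, coordinates and overlaps were taken from Ensembl release 115 (BDGP6), which differs from the build of the reads, so it was used by gene ID (98.9% of IDs matched; 70 members by ID and mRpS34 and mRpS5 by symbol). Of 73 annotated mRp genes, 72 were in the table, and mRpL53 was not analysed here. Many pathway genes stand in the table under CG symbols. Proteins numbered L1 to L36 and S2 to S21 counted as having a bacterial counterpart, with mRpL47, mRpS24 and mRpS28 added from their human counterparts.

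The text names, by subunit, the 5 highest and 5 lowest genes by level in each group and by ratio (those at 0 set apart), the S18 set, genes with a known place in the ribosome, and the pathway lists. The members, lists and rules were chosen with earlier results of these data known. Fits per library, foreseen for the case of values per library, were not run because means per group were analysed. Promoter motif counts were also foreseen, and no sequences were analysed here. Alternatives were other scalings, pseudocounts of 1 and 0.01, no minimum and a minimum of 10 FPKM, members without overlaps, other assignments to subunit and class, and, added after seeing the data, members above 0 in the βNACtes IP and members with overlaps alone. A median or difference counted as moved where it shifted by more than the log2 of 1.5, and a count or ratio where it changed more than 1.5 times. The scripts were tested on simulated data. The tools were matplotlib 3.10.9, scipy 1.17.1, pandas 2.3.3 and numpy 2.4.6 under Python 3.11.15.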

Additional observations from a re-analysis of the deposited data

How the results depend on the processing

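Every ratio above rests on the scaling of 2 group means. On the deposited values with no centring the median ratio of the members was −1.07, with 39 lower and 2 higher, and the medians were −1.16 for the large and −0.66 for the small subunit. In TPM these were −0.24, 12, 6, −0.33 and, reversed in sign, 0.18. Of all genes kept, 18.3% were lower and 43.6% higher on the deposited values. In TPM these shares were 8.75% and 62.05%. Without members whose exons overlap another gene, 23 of 30 were lower and the small subunit had a median of −0.76. The alternatives without members at 0 in the βNACtes IP and over overlapping members alone were chosen after seeing the data. Over the overlapping members alone, 36 of 42 were lower, the small subunit had a median of −2.20, and the order of the subunits turned, with a difference of 0.19 in median ratio (large minus small) and a ratio of 0.985 in median level in total ribosomes. Without those at 0 these values were 33 of 39, −2.20 and 0.41, with a level ratio of 0.836 in the βNACtes IP. In the other alternatives the difference lay between −0.42 and −1.08, where the scalings shift both subunits alike and cannot change it. In all, 16 values moved, 4 reversed and 76 moved by less. With the class set by number alone, members with a bacterial counterpart stood 0.44 above the mitochondrion-specific ones. No paired analysis was possible because the columns are group means that carry no replicate numbers, and for the same reason no library could be left out. The depth of the libraries is unknown, so low levels such as that of mRpS5 have no stated precision.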
